A study of Homo sapiens with 26 samples.

Results

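The genes described are 8 members of the fibroblast growth factor (FGF) system: the receptors FGFR1, FGFR2, FGFR3 and FGFR4, the secreted binding protein FGFBP1, the ligands FGF2 and FGF19, and the coreceptor KLB. They were selected by symbol, with earlier results of these libraries known, and matched to 8 of 62703 gene identifiers in the Panc10.05 and BxPC3 tables and 8 of 62754 in the AsPC-1 table. The measured values behind that choice are not recorded, so the tests below describe how the members behaved and are not independent support for choosing them. RNA was measured in 26 libraries. They came from 3 established lines of human pancreatic ductal adenocarcinoma in which HNF4A, the gene of the nuclear receptor HNF4α, had been induced or repressed. HNF4A has a P1 and a P2 promoter, and the study compared isoforms of both.

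In Panc10.05, doxycycline-inducible cells carried the isoform P1-a2 (25 ng/mL doxycycline), the isoform P2-a8 (12.5 ng/mL) or a GFP control, called NC (25 ng/mL), with 2 libraries each. Isoform and dose therefore change together between P1-a2 and P2-a8 in this line and cannot be told apart. P2-a8 and NC differ in dose as well, so construct and dose cannot be told apart in that comparison either. In BxPC3, P1-a2, P2-a8 and an empty vector control (EV in the titles, group NC) each had 2 libraries, all at 500 ng/mL. In AsPC-1, CRISPR interference, which represses a promoter through a guide RNA and inactive Cas9, was applied with the control guide sgNC (2 libraries) or with guides against P1 (sgP1E, sgP1J), P2 (sgP2D, sgP2G) or both promoters (sgDual2, sgDual3), at 2 libraries per guide. No doxycycline dose is given for AsPC-1. The titles of each line begin with a number of their own, which they do not explain. Line cannot be told apart from whatever that number marks, and the 3 tables were scaled separately. The labels do not say that replicates were separate cultures, so p-values measure the spread between these libraries, which may be technical. Tests by target in AsPC-1 pool the libraries of both guides of a target. Their standard errors and p-values therefore mix the spread between guides with that between libraries.

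Summed counts per library lay between 34618745 and 46827673 for Panc10.05, between 26369154 and 37483772 for BxPC3, and between 26079388 and 50662077 for AsPC-1. Levels are given as CPM, counts relative to the library's total after scaling by the trimmed mean of M-values. The mean level of HNF4A itself was 0.149 CPM in Panc10.05 NC, 11.8 under P1-a2 and 37.6 under P2-a8, and 0.771, 10.7 and 13.4 CPM in the same groups of BxPC3. In AsPC-1 it was 213 CPM with sgNC, 129 with sgP1, 86.5 with sgP2 and 7.99 with sgDual. Against sgNC, the test called HNF4A lower with sgDual (log2 fold change -4.73, adjusted p = 6.25e-06) but not with sgP1 (-0.72, adjusted p = 0.615) or sgP2 (-1.3, adjusted p = 0.0751). Every sgP1 and sgP2 library was nevertheless below both sgNC libraries. HNF4A was 206 and 220 CPM with sgNC, 109 to 146 CPM with sgP1 and 76.7 to 93.9 CPM with sgP2. All 7 epithelial and ductal markers averaged 1 CPM or more over the libraries of each line, though KRT7 in AsPC-1 ran from 0.503 to 8.47 CPM, and the 4 acinar and endocrine markers summed to at most 1.08 CPM in any library. The 7 mesenchymal markers summed to between 3010 and 4700 CPM in AsPC-1, 53.8 and 133 CPM in BxPC3 and 8.37 and 11.7 CPM in Panc10.05. VIM made up nearly all of the AsPC-1 sum, with group means from 3130 to 4190 CPM. CDH2 had 0 counts in AsPC-1 against group means of 1.74 to 4.89 CPM in BxPC3, COL1A1 had group means of 0.304 to 0.526 CPM in AsPC-1 against 11.2 to 11.8 in BxPC3, and 2 of the 7 averaged 1 CPM in AsPC-1, 4 in BxPC3 and 3 in Panc10.05.

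FGFs are secreted factors that bind heparan sulphate and activate receptor tyrosine kinases, which relay through FRS2, GRB2 and RAS to the ERK kinases. FGF2 is a heparin-binding ligand held in the matrix, and FGFBP1 is a secreted carrier that releases such ligands from it. FGF19 is an endocrine-type ligand of the intestine that acts on hepatocytes through FGFR4 together with β-Klotho, the product of KLB, and lowers bile acid synthesis. HNF4α is known as a regulator of liver and intestinal genes.

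In GRCh38, with GENCODE v29 gene spans, FGFR2 (ENSG00000066468) lies on chr10:121478334-121598458, FGFR3 (ENSG00000068078) on chr4:1793293-1808872, FGFR4 (ENSG00000160867) on chr5:177086886-177098144 and FGFBP1 (ENSG00000137440) on chr4:15935569-15938740. FGF2 (ENSG00000138685) lies on chr4:122826708-122898236, FGF19 (ENSG00000162344) on chr11:69698232-69704642 and KLB (ENSG00000134962) on chr4:39406853-39451536. All 8 members are protein coding.

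RefSeq sequences upstream of transcript starts (assembly GRCh38.p14) are shown for FGFR4, FGFBP1 and the FGFR2 start whose window held the motif match described below. Of the members tested, FGFR4 changed most with sgDual against sgNC, and FGFBP1 changed most under P1-a2 against NC in Panc10.05. In some other comparisons other members changed more. Each run is the 250 bases before a start, 5′ to 3′ on the gene's strand, in lower case, with a motif match in capitals.
FGFR4, chr5:177086665-177086914, plus strand: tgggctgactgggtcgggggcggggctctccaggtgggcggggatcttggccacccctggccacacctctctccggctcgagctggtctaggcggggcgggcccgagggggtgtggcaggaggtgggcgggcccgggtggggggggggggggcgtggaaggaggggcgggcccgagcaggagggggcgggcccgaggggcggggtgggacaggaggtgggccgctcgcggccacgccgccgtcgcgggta
FGFR4, chr5:177089300-177089549, plus strand: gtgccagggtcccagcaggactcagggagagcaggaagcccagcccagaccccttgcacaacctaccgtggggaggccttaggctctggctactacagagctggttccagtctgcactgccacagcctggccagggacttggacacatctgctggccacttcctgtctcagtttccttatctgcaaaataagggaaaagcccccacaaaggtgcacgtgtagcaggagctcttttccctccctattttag
FGFBP1, chr4:15938741-15938990, minus strand: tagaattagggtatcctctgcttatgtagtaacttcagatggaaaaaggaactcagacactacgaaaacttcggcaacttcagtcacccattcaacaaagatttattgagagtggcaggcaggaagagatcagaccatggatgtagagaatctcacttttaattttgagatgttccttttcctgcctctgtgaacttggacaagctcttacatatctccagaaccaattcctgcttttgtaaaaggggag
FGFR2, chr10:121594259-121594508, minus strand: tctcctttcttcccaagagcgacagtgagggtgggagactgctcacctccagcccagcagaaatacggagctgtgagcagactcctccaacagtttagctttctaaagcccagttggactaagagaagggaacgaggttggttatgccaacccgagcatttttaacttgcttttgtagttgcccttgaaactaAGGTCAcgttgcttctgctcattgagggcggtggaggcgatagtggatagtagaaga

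The capitals mark AGGTCA, the single-copy core of nuclear receptor sites, which began 57 bases before the FGFR2 start at 121594258. The windows of 6 members were searched on both strands for AGGTCA, for CAAAGTC (the core of the HNF4 site) and for TGACTCA (the AP-1 site), 11 windows in all, and this was the only match. Of 35116 promoter windows of the same length, 12.1% held AGGTCA, 2.91% CAAAGTC and 4.2% TGACTCA. The absence of a match says only that these letters are not in these windows. GENCODE v29 placed the second FGFR4 window and the FGFR2 window shown in introns of those genes, the last 29 bases of the first FGFR4 window in an exon, and the FGFBP1 window outside the gene.

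The receptor of highest level differed between the lines, and in AsPC-1 and Panc10.05 the order of the receptors changed with HNF4A. Divided by exon length to compare genes, FGFR3 led in BxPC3 NC at 24.9 ± 1.45 CPM per kb (mean ± SD, n = 2), ahead of FGFR2 at 5.16 ± 0.07, FGFR1 at 0.744 ± 0.0227 and FGFR4 at 0.158 ± 0.0158. In Panc10.05 NC, FGFR3 at 1.97 ± 0.0504 CPM per kb stood just above FGFR4 at 1.55 ± 0.0173 (n = 2). Under P1-a2 that order turned, with FGFR4 at 3.86 ± 0.485 and FGFR3 at 0.3 ± 0.109 CPM per kb, and under P2-a8 FGFR4 stood at 2.8 ± 0.288 and FGFR3 at 0.516 ± 0.0557. In AsPC-1 with sgNC, FGFR4 led at 9.22 ± 0.666 CPM per kb (n = 2), ahead of FGFR1 at 6.51 ± 0.792, FGFR3 at 0.872 ± 0.0129 and FGFR2 at 0.337 ± 0.0984. With sgDual, FGFR1 led at 7.03 ± 0.388 CPM per kb (n = 4), and FGFR2 at 1.77 ± 0.226 stood above FGFR4 at 1.37 ± 0.105. FGFR1 was also above FGFR4 on average with sgP1, at 6.3 ± 1 against 3.98 ± 1.64, and with sgP2, at 7.38 ± 1.1 against 3.46 ± 0.994. In sgP1J replicate 2, FGFR4 was the higher, at 5.76 against 5.07 CPM per kb. The lead of FGFR4 over FGFR1 with sgNC rests on the merged exon lengths, 4.83 kb for FGFR4 and 13.84 kb for FGFR1. Before that division FGFR1 was the higher with sgNC, at 90.2 CPM against 44.5 CPM for FGFR4. These orders are descriptions without a test.

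**Figure D1:**
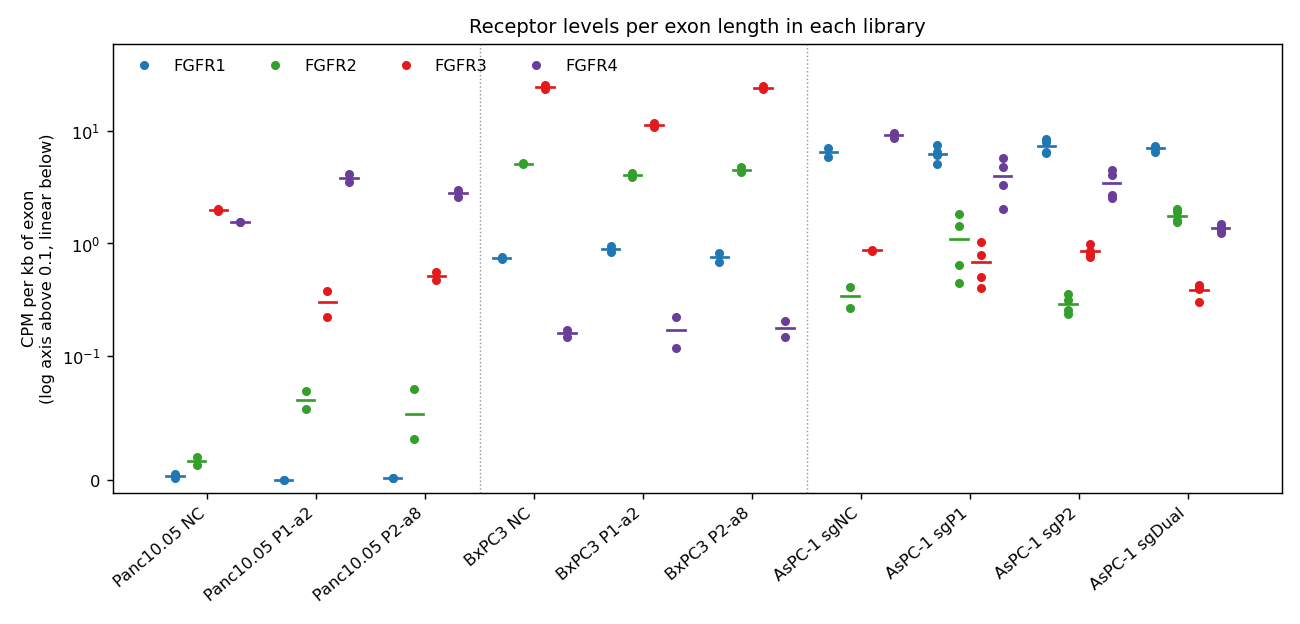
Level of each FGF receptor in CPM per kb of exon (vertical axis, logarithmic above 0.1 and linear below) in every library of the 10 groups; points are libraries and short lines are group means. FGFR3 is the highest receptor in all BxPC3 groups, and FGFR4 rises above FGFR3 in both induced groups of Panc10.05. In AsPC-1, FGFR4 falls from the top with sgNC to below FGFR1 and FGFR2 with sgDual, and its mean is below that of FGFR1 with sgP1 and sgP2 too. Without the division by exon length, FGFR1 is above FGFR4 with sgNC too, at 90.2 against 44.5 CPM. The lines were scaled separately.

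In Panc10.05, FGFR4 and FGFR2 were higher and FGFR3 and FGFBP1 lower under either isoform than in NC. These were all 4 members that passed the filter on low counts: 4 of 4 passed an adjusted p of 0.05 under P1-a2, where 62% of the 17247 genes tested did, and 4 of 4 under P2-a8, where 46.2% did. Between P1-a2 and P2-a8, 3 of 4 passed, against 46.9% of genes. FGFR1, FGF2, FGF19 and KLB had at most 4 counts in any Panc10.05 library and were not tested. So many genes moved in this line that the members' counts are read as a description of these genes and not as a feature of the family. All tests are edgeR quasi-likelihood F tests with p-values adjusted over every gene tested in a table, and folds are log2 fold changes with their standard error (SE).

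FGFR4, the receptor for FGF19, was higher where HNF4A was induced in Panc10.05 and lower where both promoters were repressed in AsPC-1. In Panc10.05 it stood at 7.57 and 7.45 CPM in NC, at 17 and 20.3 CPM under P1-a2 and at 12.5 and 14.5 CPM under P2-a8. The 3 groups did not overlap, and both P1-a2 libraries lay above both P2-a8 libraries. P2-a8 had more HNF4A RNA, and isoform and dose cannot be told apart between these groups. The log2 fold change of FGFR4 against NC was 1.31 under P1-a2 (SE 0.11, adjusted p = 6.31e-14) and 0.84 under P2-a8 (SE 0.11, adjusted p = 3.72e-08), and P1-a2 exceeded P2-a8 by 0.47 (SE 0.1, adjusted p = 0.000175).

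In AsPC-1, the line with the most HNF4A RNA, FGFR4 was 42.3 and 46.8 CPM with sgNC. It was 9.77 and 16.1 CPM with sgP1E, 23.3 and 27.8 with sgP1J, 12.3 and 21.9 with sgP2D, and 12.9 and 19.6 with sgP2G. With sgDual2 it was 6.03 and 6.79 CPM and with sgDual3 6.45 and 7.22. Every library with a targeting guide was thus below both sgNC libraries, and the 4 sgDual libraries were below all others.

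FGFR4 fell by 2.75 on the log2 scale with sgDual against sgNC (SE 0.33, adjusted p = 6.86e-05), a call that no alternative ended. With sgP2 it fell by 1.41 (SE 0.32, adjusted p = 0.0349). That call ended without sgP2D replicate 1, either sgP2G replicate or either sgNC replicate (adjusted p from 0.0546 to 0.228), without sgP2D or sgP2G as a whole (0.0963 and 0.135) and with no filter on low counts (0.0862). With sgP1 its log2 fold change was -1.22 (SE 0.32, adjusted p = 0.184), while DESeq2 gave it an adjusted p of 0.0117 and sgP1E alone gave -1.79 (adjusted p = 0.00347). sgDual was also below sgP1 (log2 fold change -1.53, SE 0.29, adjusted p = 0.00133) and below sgP2 (-1.34, SE 0.29, adjusted p = 0.00239). sgP2 and sgP1 differed by -0.2 (95% interval from -0.74 to 0.35, adjusted p = 0.762).

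BxPC3 held little FGFR4, between 21 and 34 counts in all 6 libraries. Its levels were 0.818 and 0.71 CPM in NC, 1.07 and 0.568 under P1-a2, and 0.715 and 0.98 under P2-a8, and the groups overlapped. The log2 fold change under P1-a2 was 0.09 with a 95% interval from -0.69 to 0.86 (adjusted p = 0.892). Under P2-a8 it was 0.15 with an interval from -0.62 to 0.92 (adjusted p = 0.878). The Panc10.05 change under P1-a2, 1.31, lay outside the BxPC3 interval for that isoform, and the one under P2-a8, 0.84, lay inside it. In the test of the difference between the lines, the P1-a2 response of FGFR4 was lower in BxPC3 than in Panc10.05 (log2 fold change -1.24, SE 0.35, adjusted p = 0.00746), a call that ended without BxPC3 P1-a2 replicate 2 (-0.83, adjusted p = 0.0837). For P2-a8 that difference was -0.69 (SE 0.35, adjusted p = 0.171) and was not called.

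**Figure D2:**
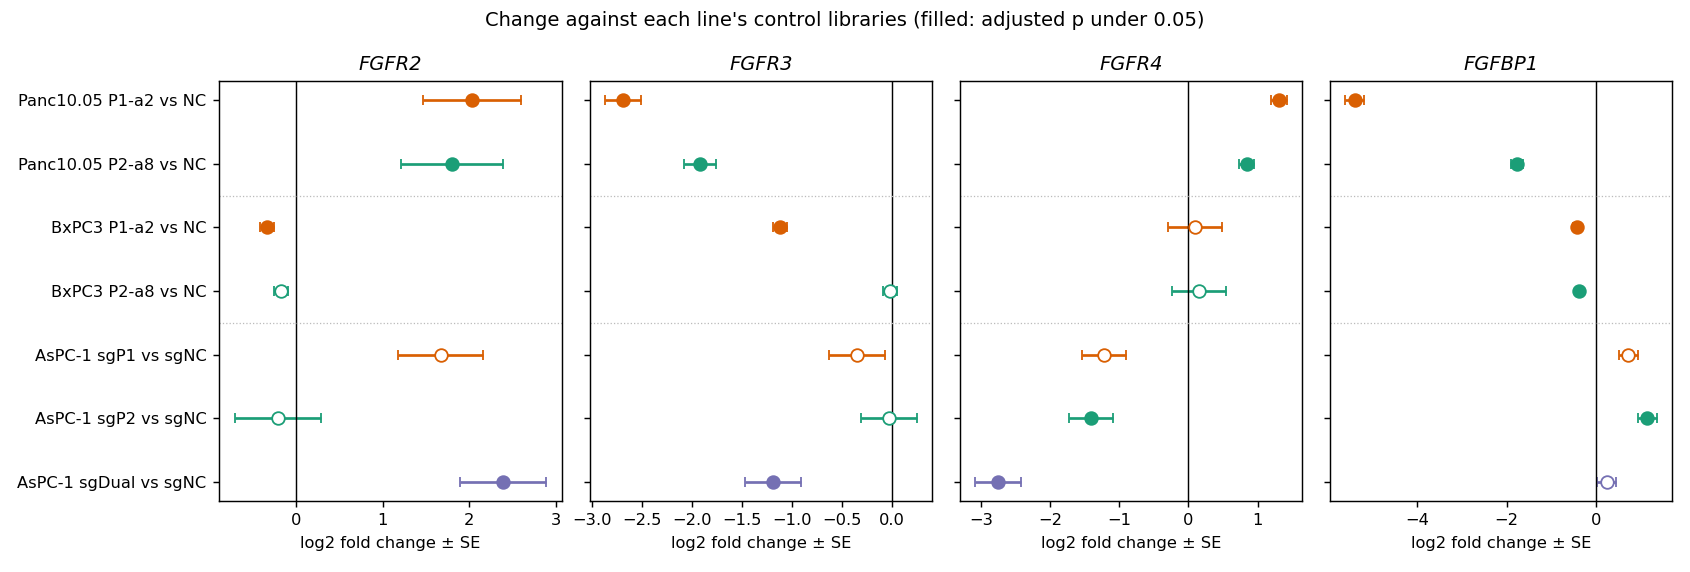
Log2 fold change (horizontal axis, ± SE) of FGFR2, FGFR3, FGFR4 and FGFBP1 against the control libraries of each line, 1 row per comparison; filled circles passed an adjusted p of 0.05 and open circles did not. FGFR4 lies to the right of 0 in Panc10.05 and to the left with all 3 guide targets in AsPC-1, and the P1-a2 change of FGFBP1 in Panc10.05, -5.39, lies farthest from 0. Comparisons of 1 line share their control libraries.

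FGFR3, a receptor of epithelial tissues, was lower under P1-a2 in both induced lines. In Panc10.05 it was 9.39 and 9.74 CPM in NC, 1.08 and 1.83 under P1-a2, and 2.69 and 2.31 under P2-a8, with no overlap between the groups. It fell by 2.69 on the log2 scale under P1-a2 (SE 0.18, adjusted p = 3.78e-17) and by 1.92 under P2-a8 (SE 0.16, adjusted p = 4e-13). The difference between P1-a2 and P2-a8 was -0.77 (SE 0.21, adjusted p = 0.0019), and without P1-a2 replicate 1 it was -0.46 (adjusted p = 0.101).

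BxPC3 had the most FGFR3, and here the isoforms parted. The levels were 125 and 116 CPM in NC, 57.5 and 53.2 under P1-a2, and 123 and 115 under P2-a8: the P1-a2 libraries stood apart and the other 4 overlapped. FGFR3 fell by 1.12 under P1-a2 (SE 0.07, adjusted p = 5.78e-07), while the change under P2-a8 was -0.02 with a 95% interval from -0.15 to 0.11 (adjusted p = 0.911). P1-a2 lay under P2-a8 (log2 fold change -1.1, SE 0.07, adjusted p = 5.57e-06) at an equal doxycycline dose. HNF4A RNA in those groups was 10.7 ± 1.32 and 13.4 ± 1.15 CPM (n = 2 each). Its levels did not overlap between the groups, though the log2 difference of -0.33 was not called (SE 0.17, adjusted p = 0.217). The response of FGFR3 differed between the lines by 1.56 under P1-a2 (SE 0.17, adjusted p = 2.25e-07) and by 1.9 under P2-a8 (SE 0.16, adjusted p = 8.47e-09), BxPC3 minus Panc10.05.

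In AsPC-1, FGFR3 was lower with sgDual. It was 4.18 and 4.27 CPM with sgNC and between 1.44 and 2.06 CPM in the 4 sgDual libraries, with no overlap, and fell by 1.19 on the log2 scale (SE 0.28, adjusted p = 0.00415). With sgP2 its log2 fold change was -0.03 (95% interval from -0.58 to 0.51, adjusted p = 0.967). The guides against P1 split: sgP1E gave 3.86 and 5 CPM and sgP1J 2.45 and 1.94, a log2 difference of 1 (SE 0.19, adjusted p = 0.00365). Together they gave -0.35 against sgNC (SE 0.28, adjusted p = 0.795), and sgP1J alone gave -0.95 (adjusted p = 0.0294). sgDual was below sgP2 (log2 fold change -1.15, SE 0.24, adjusted p = 0.00105) and below sgP1, where the groups overlapped, by -0.84 (SE 0.24, adjusted p = 0.0114). The call against sgP1 ended without sgP1E (-0.23, adjusted p = 0.338) and without sgDual2 (-0.74, adjusted p = 0.0956).

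FGFR2, whose epithelial and mesenchymal splice forms bind different ligands, was near the limit of detection in Panc10.05. It had 4 and 5 counts in NC, 17 and 25 under P1-a2, and 26 and 9 under P2-a8. The induced libraries were all above NC, and the isoform groups overlapped. Its log2 fold change came to 2.03 under P1-a2 (SE 0.57, adjusted p = 0.00204) and 1.8 under P2-a8 (SE 0.59, adjusted p = 0.0108). The P2-a8 call ended without P2-a8 replicate 1 (1.08, adjusted p = 0.349), without NC replicate 1 (1.52, adjusted p = 0.0999) and in DESeq2 (adjusted p = 0.068).

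In BxPC3, FGFR2 was 38.7 and 39.5 CPM in NC, 32.3 and 29.4 under P1-a2, and 32.9 and 36.1 under P2-a8, so that both induced groups lay below NC. Under P1-a2 it fell by 0.34 (SE 0.08, adjusted p = 0.00727), a call that ended without P1-a2 replicate 2 (-0.28, adjusted p = 0.0587), and under P2-a8 its log2 fold change was -0.18 (SE 0.08, adjusted p = 0.228). The response of FGFR2 therefore had opposite signs in the induced lines. The test of that difference gave -2.38 under P1-a2 (SE 0.45, adjusted p = 0.000193) and -1.99 under P2-a8 (SE 0.47, adjusted p = 0.0031), and the latter ended without Panc10.05 P2-a8 replicate 1 (-1.27, adjusted p = 0.203).

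In AsPC-1, FGFR2 was 2.03 and 3.08 CPM with sgNC and rose with sgDual, to 11.7 and 12.2 CPM with sgDual2 and 14.4 and 15.3 CPM with sgDual3. With guides against P2 it stayed between 1.78 and 2.71 CPM and overlapped with sgNC. With guides against P1 it was 3.39 and 4.88 CPM for sgP1E and 10.8 and 13.8 CPM for sgP1J, so sgP1J reached the range of sgDual and sgP1E lay just above sgNC. The sgDual rise was 2.39 on the log2 scale (SE 0.5, adjusted p = 0.00279), and without sgNC replicate 1 it was 2.12 (adjusted p = 0.0571). sgDual exceeded sgP2 by 2.61 (SE 0.39, adjusted p = 0.000157), and sgP2 was below sgP1 (log2 fold change -1.89, SE 0.39, adjusted p = 0.0183). The sgDual minus sgP1 difference was 0.72 (SE 0.35, adjusted p = 0.124), with overlap, and 1.09 without sgP1J replicate 2 (adjusted p = 0.0163). The sgP2 call against sgP1 ended without sgP2D replicate 1 or sgP2G replicate 1 (adjusted p = 0.0669 and 0.0603), without sgP2D or sgP2G as a whole (0.152 and 0.109), with only the groups compared in the fit (0.0865) and with no filter (0.0522).

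The sgP1 comparison with sgNC gave FGFR2 a log2 change of 1.67 (SE 0.49, adjusted p = 0.243; DESeq2 0.0402). sgP1J alone gave 2.26 (adjusted p = 6.45e-05), and the difference between the guides, sgP1E minus sgP1J, was -1.59 (SE 0.21, adjusted p = 0.000275). Of 6 regulators of FGFR2 splicing, 4 differed between the same guides (66.7%, all genes 14.5%), 2 higher and 2 lower with sgP1E. The 2 lower genes were ESRP1 and ESRP2, splicing factors that favour the epithelial form of FGFR2. RBFOX2 and MBNL1 of the same list went the other way, with both sgP1E libraries above both sgP1J libraries. ESRP1 was 0.897 and 1.9 CPM with sgP1E and 9.9 and 17.4 CPM with sgP1J (log2 difference -3.35, SE 0.47, adjusted p = 0.00106). ESRP2 was 2.73 and 4.58 CPM with sgP1E and 18.7 and 16.1 CPM with sgP1J (-2.28, SE 0.18, adjusted p = 3.1e-06). Both sgNC libraries lay between the guides for ESRP2, at 10.9 and 11.2 CPM. For ESRP1, the sgNC libraries overlapped with sgP1E and lay below both sgP1J libraries. Which splice form of FGFR2 was made was not tested, since the tables count whole genes.

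FGFR1, the receptor typical of mesenchymal cells, was not called in any of the 9 comparisons between groups in which it was tested. It ran from 70.2 to 119 CPM over the 14 AsPC-1 libraries and from 9.4 to 13.1 CPM in BxPC3, and had at most 3 counts in Panc10.05. With sgDual its log2 fold change against sgNC was 0.11 (95% interval from -0.17 to 0.39, adjusted p = 0.59), and under P1-a2 in BxPC3 it was 0.27 (interval from 0.02 to 0.52, adjusted p = 0.129). The latter interval leaves out 0 although the F test gave an unadjusted p of 0.0553, since intervals are normal approximations and somewhat too narrow. FGFR1 overlaps LETM2 on the opposite strand, and the strand setting of the counting is not given in the sources used here, so reads of both genes may not be told apart.

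FGFBP1 showed the largest change among the members, in Panc10.05. Its levels there were 13.2 and 12.7 CPM in NC, 0.308 and 0.304 CPM under P1-a2, from 12 and 14 counts, and 3.48 and 4.17 CPM under P2-a8. The 3 groups were far apart, with P2-a8 between the others. FGFBP1 fell by 5.39 on the log2 scale under P1-a2 (SE 0.21, adjusted p = 4.91e-25) and by 1.77 under P2-a8 (SE 0.14, adjusted p = 1.98e-14), and P1-a2 lay under P2-a8 (log2 fold change -3.62, SE 0.24, adjusted p = 3.43e-16). In the same libraries P1-a2 had less HNF4A RNA than P2-a8, with a log2 difference of -1.66 (SE 0.1, adjusted p = 5.02e-17). Isoform and dose cannot be told apart between these groups, and the cause of the FGFBP1 difference was not tested.

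BxPC3 had the highest FGFBP1 of the lines and a small decrease. It was 265 and 227 CPM in NC, 195 and 170 under P1-a2, and 190 and 191 under P2-a8, with both induced groups below NC and overlapping each other. It fell by 0.43 under P1-a2 (SE 0.08, adjusted p = 0.00285) and by 0.37 under P2-a8 (SE 0.08, adjusted p = 0.0263). The latter call ended without NC replicate 1 (-0.26, adjusted p = 0.147), P2-a8 replicate 1 (adjusted p = 0.0649) or P2-a8 replicate 2 (adjusted p = 0.0698). The difference between P1-a2 and P2-a8 was -0.06 (95% interval from -0.23 to 0.1, adjusted p = 0.637). The lines differed in their response by 4.95 under P1-a2 (SE 0.21, adjusted p = 4.25e-14), by 1.41 under P2-a8 (SE 0.14, adjusted p = 9.08e-08) and by 3.54 for P1-a2 against P2-a8 (SE 0.24, adjusted p = 7.22e-10), BxPC3 minus Panc10.05.

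In AsPC-1, FGFBP1 was 47.8 and 43.6 CPM with sgNC. It was 83.1 and 69.2 CPM with sgP1E, 74.9 and 73.8 with sgP1J, 107 and 82 with sgP2D, and 126 and 90.5 with sgP2G. With sgDual2 it was 50.1 and 39.4 CPM and with sgDual3 73.6 and 52.6. All libraries with a guide against a single promoter were above sgNC, whereas the sgDual libraries, with the least HNF4A, overlapped sgNC.

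FGFBP1 rose with sgP2 by 1.15 on the log2 scale (SE 0.21, adjusted p = 0.013), a call that ended without either sgNC replicate (adjusted p = 0.13 and 0.17). With sgP1 its log2 fold change was 0.72 (SE 0.21, adjusted p = 0.241; DESeq2 0.0329) and with sgDual 0.24 (95% interval from -0.17 to 0.64, adjusted p = 0.405). sgDual was below sgP2 (log2 fold change -0.91, SE 0.17, adjusted p = 0.000643), and below sgP1 by -0.48 (SE 0.17, adjusted p = 0.0361), where the groups overlapped. The latter call ended without sgP1E replicate 1, either sgP1J replicate, either sgDual2 replicate or sgDual3 replicate 2 (adjusted p from 0.0553 to 0.0916), without sgP1E, sgP1J or sgDual2 as a whole (0.131, 0.108 and 0.299) and with no filter (0.113).

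**Figure D3:**
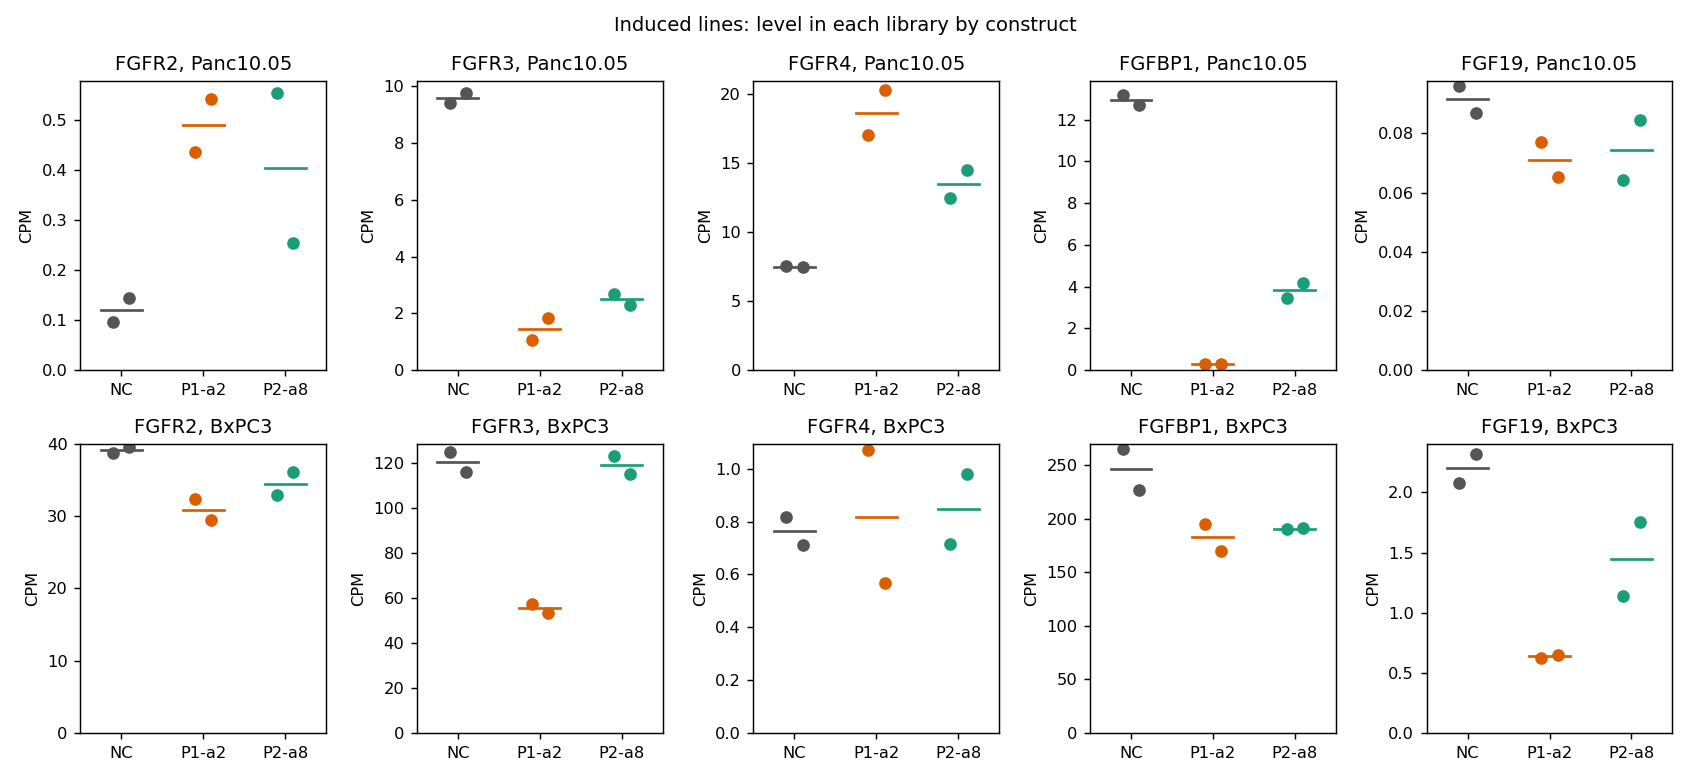
CPM (vertical axis, from 0, own scale in each panel) of FGFR2, FGFR3, FGFR4, FGFBP1 and FGF19 in the libraries of Panc10.05 (top) and BxPC3 (bottom); points are libraries and lines are means of 2. FGFBP1 in Panc10.05 drops from 13.2 and 12.7 CPM to 0.308 and 0.304 under P1-a2, and FGFR3 in BxPC3 is lowest under P1-a2; FGF19 in Panc10.05 rests on 3 or 4 counts a library.

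In BxPC3, 4 of the 6 members tested passed under P1-a2 (FGFR2, FGFR3, FGFBP1 and FGF19, all lower), where 32% of the 17635 genes tested passed. Under P2-a8, 1 of 6 passed (FGFBP1), against 6.99% of genes. Between P1-a2 and P2-a8, 2 of 6 passed (FGFR3 and FGF19), against 22.5%. FGF2 had at most 2 counts in any BxPC3 library, and KLB had 6 counts in NC replicate 2 and none in the others.

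FGF19, the intestinal hormone that acts through FGFR4 and β-Klotho, was lower under P1-a2 in BxPC3. Its levels were 2.08 and 2.32 CPM in NC, 0.627 and 0.649 under P1-a2, and 1.14 and 1.75 under P2-a8, in 3 groups without overlap. It fell by 1.78 under P1-a2 (SE 0.3, adjusted p = 0.000886), and the log2 fold change under P2-a8 was -0.62 (SE 0.27, adjusted p = 0.22). P1-a2 was below P2-a8 by -1.17 (SE 0.31, adjusted p = 0.0196), a call that ended without P1-a2 replicate 1 (adjusted p = 0.075), P1-a2 replicate 2 (0.0836) or P2-a8 replicate 2 (0.162). In Panc10.05, FGF19 stood at 3 or 4 counts in every library, and no fold is given.

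AsPC-1 had the most FGF19, and guides with the same target gave different levels. It was 21.2 and 35.7 CPM with sgNC, 10.8 and 21.4 with sgP1E, and 44.6 and 66.3 with sgP1J. With sgP2D it was 15.4 and 29.3 CPM and with sgP2G 14.8 and 25.5. With sgDual2 it was 46.4 and 49.7 CPM and with sgDual3 16.1 and 20.4. The sgP1J and sgDual2 libraries were above sgNC and the partner guides of both were not.

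No comparison between targets called FGF19 in AsPC-1. Its log2 fold change with sgDual was 0.22 (95% interval from -1.1 to 1.54, adjusted p = 0.834), and leaving out sgDual2 turned it to -0.63. The sgP1E minus sgP1J difference was -1.8 (SE 0.43, adjusted p = 0.0226), a call that ended without sgP1E replicate 1 (-1.37, adjusted p = 0.145) or sgP1J replicate 2 (-1.48, adjusted p = 0.116). The sgDual2 minus sgDual3 difference was 1.39 (SE 0.43, adjusted p = 0.311; DESeq2 0.201). With no filter on low counts its adjusted p was 9.09e-31, and the cause was not tested. The sgDual2 minus sgDual3 difference also passed the threshold with a replicate block, though the labels do not say that a replicate number marks a batch.

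FGF2 was detected above 3 counts only in AsPC-1. There it was 24.2 and 26.6 CPM with sgNC, 37.6 and 34.6 with sgP1E, and 36.2 and 31.8 with sgP1J. It was 19.6 and 19.8 CPM with sgP2D and 34.1 and 33.2 with sgP2G, and 33.2 and 38.4 with sgDual2 and 47.8 and 51.4 with sgDual3. The guides against P2 lay on opposite sides of sgNC, and the libraries with guides against P1 or both promoters were all above it.

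With sgDual, FGF2 rose by 0.75 (SE 0.24, adjusted p = 0.0261). That call ended without either sgNC replicate (adjusted p = 0.183 and 0.0875), either sgDual3 replicate (0.0531 and 0.058), sgDual3 as a whole (0.5, 0.165) or the filter (0.0971). sgDual exceeded sgP2 by 0.68 (SE 0.19, adjusted p = 0.00999), though the groups overlapped, and this ended without sgP2D (0.35, adjusted p = 0.0736) or sgDual3 (0.42, adjusted p = 0.144). sgP2D minus sgP2G was -0.77 (SE 0.1, adjusted p = 0.000635). sgDual2 minus sgDual3 was -0.47 (SE 0.09, adjusted p = 0.0272), and leaving out any library of these guides ended that call (adjusted p from 0.0535 to 0.431). FGF2 overlaps NUDT6 on the opposite strand, so its counts are uncertain in the same way as those of FGFR1.

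KLB, the coreceptor that FGF19 needs, was at 0 counts in all but 2 of the 26 libraries, with 6 counts in BxPC3 NC replicate 2 and 2 counts in sgP2D replicate 1. It was not tested in any table. FGF19 and FGFR4 were thus both measurable in AsPC-1 while KLB was not detectable at this depth, where 3 counts correspond to between 0.0592 and 0.115 CPM.

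**Figure D4:**
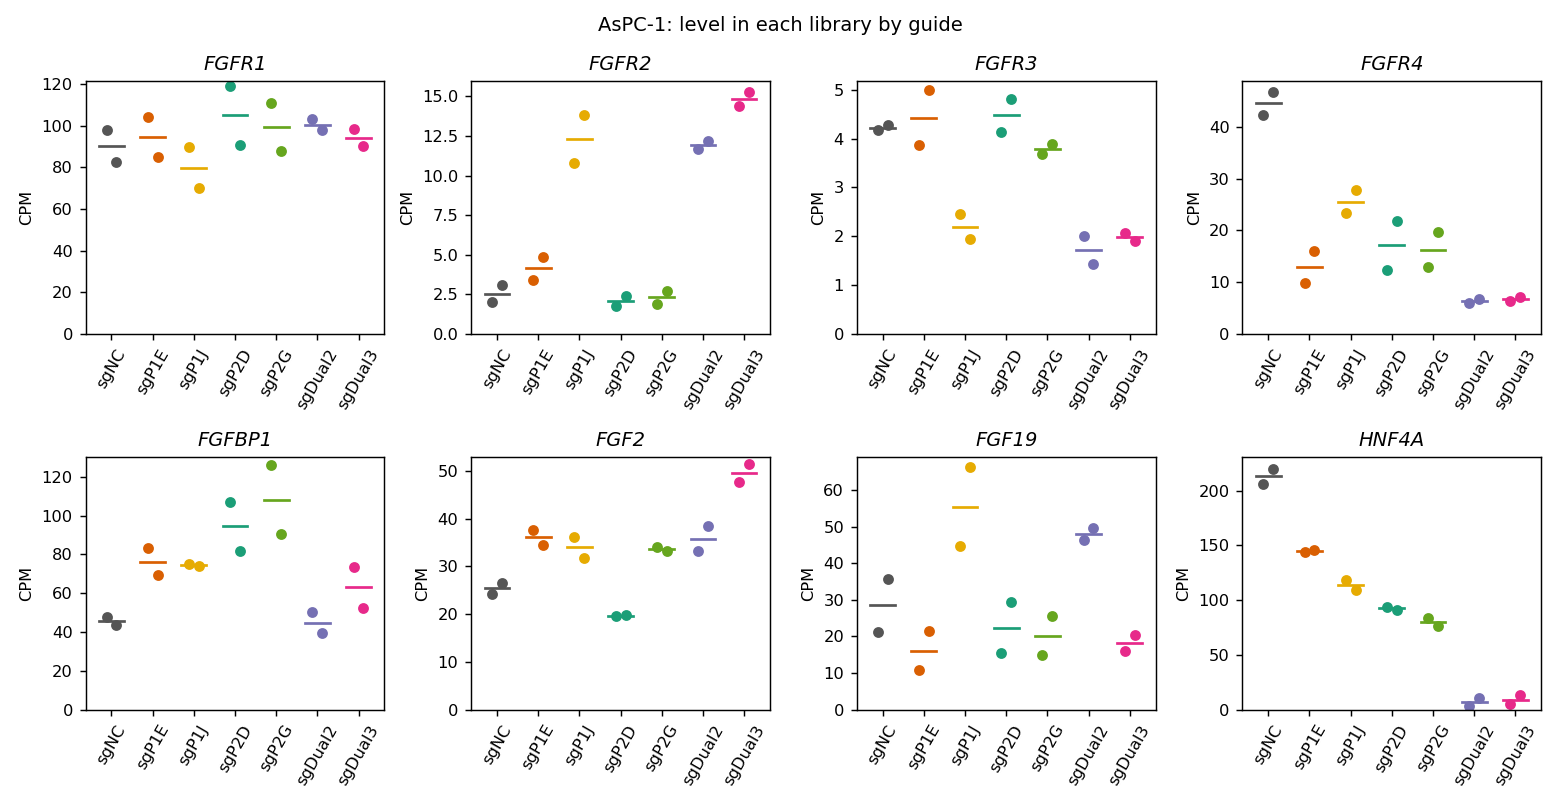
CPM (vertical axis, from 0, own scale in each panel) of 7 members and HNF4A in the 14 AsPC-1 libraries by guide (horizontal axis); points are libraries and lines are means of 2. FGFR4 is below sgNC with every targeting guide, FGFR2 is high with sgP1J, sgDual2 and sgDual3, and FGF19 is highest with sgP1J and sgDual2, whose partner guides sgP1E and sgDual3 have the same target.

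The 3 comparisons with sgNC share its 2 libraries. Of 7 members tested in AsPC-1, 0 passed with sgP1 against sgNC, where 0.265% of the 16992 genes tested passed, and 1516 genes had an unadjusted p under 0.05. FGFR2, FGFR4 and FGFBP1 were the 3 members among those 1516, and DESeq2 called 3 members. With sgP2 against sgNC, 2 of 7 passed (FGFR4 and FGFBP1), against 3.42% of genes. With sgDual against sgNC, 4 of 7 passed (FGFR2, FGFR3, FGFR4 and FGF2), against 35.6%. Of the contrasts between targets, sgP2 against sgP1 called 1 of 7 (FGFR2; 4.3% of genes), sgDual against sgP1 called 3 of 7 (FGFR3, FGFR4 and FGFBP1; 38.3%) and sgDual against sgP2 called 5 of 7 (all but FGFR1 and FGF19; 46.4%).

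Guides of a target were compared with each other in a fit by guide. sgP1E and sgP1J differed for 3 of 7 members (FGFR2, FGFR3 and FGF19), against 14.5% of genes. FGFR4 differed between them by -0.99 (SE 0.3, adjusted p = 0.0512; DESeq2 0.00251). sgP2D and sgP2G differed for 1 of 7 (FGF2), against 1.69%, and sgDual2 and sgDual3 for 1 of 7 (FGF2), against 0.883%. HNF4A itself averaged 145 CPM with sgP1E and 114 CPM with sgP1J (n = 2 each). The guides did not overlap, at 144 and 146 CPM with sgP1E and 118 and 109 CPM with sgP1J. The log2 difference, sgP1E minus sgP1J, was 0.35 (SE 0.41, adjusted p = 0.627) and was not called. With an SE of that size, the test cannot show that both guides lowered HNF4A equally.

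The responses of Panc10.05 and BxPC3 were compared in a joint fit of their 12 libraries, for members above 3 counts in some library of both lines' groups compared. Under P1-a2 against NC, 4 of 5 members differed (all but FGF19), where 36.4% of the 19372 genes tested did, and under P2-a8 against NC 3 of 5 (FGFR2, FGFR3 and FGFBP1), against 23.5%. For P1-a2 against P2-a8 it was 1 of 4 (FGFBP1), against 22.3%. FGF19 entered the contrasts with NC at only 3 or 4 counts in each Panc10.05 library. Its differences there, -1.43 (SE 0.88) under P1-a2 and -0.3 (SE 0.89) under P2-a8, cannot show whether its response differed between the lines. Line, dose, control construct and the number that opens the titles change together in these contrasts and cannot be told apart.

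Other genes of the pathway were followed in 7 lists of 98 genes besides the members. In BxPC3 with P1-a2 against P2-a8, 11 of 24 FGF and ERK feedback and target genes passed (45.8%, beside 22.5% of all genes tested). All 11 were higher, and 13 did not pass. The median log2 fold change over the list was 0.24 beside -0.01 over all genes tested, of which 2054 were higher and 1909 lower. SPRY4, an intracellular inhibitor of receptor signalling, was higher by 1.41 (SE 0.11, adjusted p = 1.44e-05), and DUSP5, an ERK phosphatase, by 0.8 (SE 0.16, adjusted p = 0.021). Against NC the same list had 4 genes higher and 4 lower under P1-a2 (33.3%, all genes 32%; median -0.03, all genes -0.01), and 6 of 24 lower and none higher under P2-a8 (25%, all genes 6.99%; median -0.25, all genes 0.01). FOSL1, a transcription factor of the AP-1 family, fell by 0.73 under P2-a8 (SE 0.1, adjusted p = 0.00332), and DUSP4, another ERK phosphatase, by 0.71 (SE 0.06, adjusted p = 5.62e-05). Of all genes tested under P2-a8, 758 were higher and 474 lower.

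In Panc10.05, 16 of 24 feedback and target genes passed under P1-a2 (11 higher, median 0.2, all genes 0.02) and 18 of 24 under P2-a8 (12 higher, median 0.41, all genes 0). These are 66.7% beside 62% of all genes under P1-a2, a share near the background, and 75% beside 46.2% under P2-a8. DUSP5 was higher by 2.45 under P1-a2 (SE 0.06, adjusted p = 2.6e-31) and by 0.91 under P2-a8 (SE 0.06, adjusted p = 2.22e-16), while ETV1, an ETS factor of the pathway, fell by 2.14 under P1-a2 (SE 0.1, adjusted p = 1.22e-21). In AsPC-1 with sgDual against sgNC, 9 of 24 passed, 8 of them higher (median 0.24, all genes 0), and the share of 37.5% was near the 35.6% of all genes. EPHA4, an ephrin receptor, rose by 3.11 (SE 0.28, adjusted p = 2.07e-06) and IL17RD, an inhibitor of FGF signalling, by 1.59 (SE 0.23, adjusted p = 0.000142). MYC, a growth-promoting transcription factor, fell by 0.61 (SE 0.11, adjusted p = 0.000627).

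Heparan sulphate proteoglycans, the matrix partners of FGFs, gave 4 of 7 tested genes lower and none higher under P1-a2 in Panc10.05 (median -0.7, all genes 0.02). The share called was 57.1%, beside 62% of all genes, of which 5434 were higher and 5265 lower. HSPG2, or perlecan, fell by 1.93 (SE 0.16, adjusted p = 6.56e-05) and AGRN, or agrin, by 1.53 (SE 0.06, adjusted p = 4.52e-24). In BxPC3 under P1-a2, 6 of 10 passed (60%, all genes 32%), 4 of them lower (median -0.07, all genes -0.01), among them HSPG2 by -1.22 (SE 0.09, adjusted p = 6.7e-06). In AsPC-1 with sgDual, 3 of 9 passed against sgNC (33.3%, all genes 35.6%), 6 against sgP1 (66.7%, all genes 38.3%) and 8 against sgP2 (88.9%, all genes 46.4%), the last with 6 higher and 2 lower (median 0.52, all genes -0.01). Against sgNC, edgeR called 0 of 9 with sgP1 and 0 with sgP2, where 0 and 2 had an unadjusted p under 0.05 and DESeq2 called 0 and 1. With sgDual against sgP2, SDC1, or syndecan-1, fell by 1.19 (SE 0.15, adjusted p = 1.89e-05), and the glypican gene GPC5, at a mean of 1.04 CPM, rose by 1.21 (SE 0.47, adjusted p = 0.0477). GPC5 stood at 0.624 CPM with sgP2, 1.45 with sgDual and 2.31 with sgNC, and its log2 fold change with sgDual against sgNC was -0.67 (SE 0.49, adjusted p = 0.32).

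The signal relay between receptor and ERK had 15 of 22 genes past the threshold under P1-a2 in Panc10.05, 8 higher and 7 lower (median 0.05, all genes 0.02), and 8 of 22 in BxPC3, 7 of them higher (median 0.09, all genes -0.01). These shares, 68.2% and 36.4%, were near the 62% and 32% of all genes. MAPK3, the gene of ERK1, was higher by 0.91 in Panc10.05 (SE 0.08, adjusted p = 1.03e-11), and fell by 0.59 with sgDual in AsPC-1 (SE 0.11, adjusted p = 0.000652), where 6 of 22 passed, 2 higher and 4 lower (27.3%, all genes 35.6%; median -0.05, all genes 0). In BxPC3 under P1-a2, the adaptor genes SHC1 and GAB1 rose most in this list, SHC1 by 0.95 (SE 0.11, adjusted p = 0.000395) and GAB1 by 0.7 (SE 0.12, adjusted p = 0.00104).

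Of 20 other ligands, 2 passed the filter in Panc10.05, 6 in BxPC3 and 3 in AsPC-1. FGF1, a ligand of all FGF receptors, had a log2 fold change in Panc10.05 of -1.89 under P1-a2 (SE 0.12, adjusted p = 4.23e-18) and -1.61 under P2-a8 (SE 0.11, adjusted p = 1.5e-15). In the FGF19 and bile acid list of 10 genes, 1 passed the filter in Panc10.05, 2 in BxPC3 and 5 in AsPC-1. NR0B2, the nuclear receptor SHP that FGF19 and bile acids act through, had 0 counts in BxPC3 NC, 91 to 107 counts under P1-a2 (2.87 ± 0.0269 CPM, n = 2) and 4 to 5 under P2-a8. The FGFR2 splicing list gave 4 of 6 lower in BxPC3 under P1-a2 (66.7%, all genes 32%; median -0.2, all genes -0.01), with ESRP1 lower by -0.58 (SE 0.06, adjusted p = 4.15e-05). DESeq2 called 2 of these 6. Of the remaining 4 genes of receptor type, FGFRL1, a receptor without a kinase domain, had a log2 fold change under P1-a2 of -0.56 in Panc10.05 (adjusted p = 1.35e-10) and -0.22 in BxPC3 (adjusted p = 0.0446). In BxPC3 under P1-a2, DESeq2 called 0 of the 2 tested genes of this type, so the FGFRL1 call there depended on the method.

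Across the 26 libraries, with each line centred on its own mean, the members' patterns could be set beside those of other genes as a description. Of 11592 or 11593 other genes with a mean of at least 1 CPM in each line, the nearest to FGFR4 were PRELID2 (r = 0.93), KCTD3 (0.91) and COMTD1 (0.86), and the nearest to FGFR3 were RPA1 (0.93), ASF1B (0.93) and NCAPG2 (0.92). Those nearest to FGFR2 were PLA2G12A (0.89), PADI1 (0.89) and KCNAB2 (0.88), and those nearest to FGFBP1 were POC1A (0.96), ARFRP1 (0.95) and PEX14 (0.95). Among the members, FGFBP1 and FGFR3 had r = 0.73, FGFR2 and FGFR3 -0.69 and FGFR4 and FGFR3 0.04. The points share lines, groups and library depth. In bulk RNA, fewer cells expressing a gene and less RNA per cell cannot be told apart.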

How the data were processed

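Poly(A) RNA of 26 libraries was sequenced with a directional kit, per the labels' protocols. The authors deposited 1 table of raw counts per gene and library for each line. The submitters' processing notes name STAR 2.7.9a, cutadapt 1.16, featureCounts 1.6.3, DESeq2 1.36.0 and GRCh38; their settings, the annotation release and the strand setting are not given in the sources used here. Identifiers matched a symbol for 99.88% (Panc10.05, BxPC3) and 99.91% (AsPC-1) of genes.

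Each table was fitted whole with edgeR 4.0.16 (quasi-likelihood F test, robust, trimmed mean of M-values, filterByExpr) in R 4.3.3 with limma 3.58.1, on all groups of the line, and p-values were adjusted by Benjamini-Hochberg over all genes tested, with a threshold of 0.05. Guides were compared in a fit by guide, and lines in a joint fit of the Panc10.05 and BxPC3 libraries. Intervals are 95%. CPM per kb used the merged exon length of GENCODE v29. Values at or below 3 counts a library were taken as not detected. The procedure was tested on simulated data with a fixed spread, no differences between guides and changes only in genes of higher counts. That test does not cover members at low counts or guides that split.

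Members and lists were chosen with earlier results of these data known. All 8 members and HNF4A are named. Of each list, up to 2 genes that rose most and 2 that fell most, among those called with a mean of at least 1 CPM could be named, and the 3 genes closest to a member by Pearson correlation of log2 CPM. ESRP1 and ESRP2 levels by guide were looked up after their values were seen. Alternatives were RLE size factors, total counts only, no filter, only the 2 groups compared, a replicate block, DESeq2 1.42.0, and leaving out each library or guide.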

Additional observations from a re-analysis of the deposited data

Results flagged for a closer look

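Of the members, 8 responses differed between Panc10.05 and BxPC3 by the test of the difference itself, as BxPC3 minus Panc10.05 on the log2 scale. For P1-a2 against NC these were FGFR2 at -2.38, FGFR3 at 1.56, FGFR4 at -1.24 and FGFBP1 at 4.95. For P2-a8 against NC they were FGFR2 at -1.99, FGFR3 at 1.9 and FGFBP1 at 1.41, and for P1-a2 against P2-a8 FGFBP1 at 3.54. FGFR2 had log2 fold changes of opposite sign in the lines. Line, dose, control construct and the number that opens the titles cannot be told apart here. No library lay outside the spread of its group by Dixon's test in the 18 checks made in groups of 4.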

How the results depend on the processing

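Over 1342 values of members under alternatives, 574 belonged to values past the threshold as reported, of which 518 stayed past it and 56 did not. A further 20 values passed only under the alternative. The sign changed in 56 values, none of which passed the threshold in either fit. The cause of each change was not tested, except that settings leaving out libraries use fewer samples. Where 1 library of a group was left, it was assumed to vary like the other groups. Leaving out libraries for the guide and line contrasts was chosen after seeing the data.

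With total counts only, FGFR1 in BxPC3 P2-a8 vs NC was -0.01. With no filter, members past the threshold numbered 1 for sgP2 vs sgNC, 0 for sgP2 vs sgP1 and 3 for sgDual2 vs sgDual3. DESeq2 called 3 members for sgP1 vs sgNC. With only the 2 groups fitted, sgP2 vs sgP1 had 0. Without guide sgP1E, the number was 2 for sgP1 vs sgNC, 2 for sgP2 vs sgP1 (FGFR3 joined, at 0.91, adjusted p = 0.0035) and 1 for sgDual vs sgP1. Without guide sgP1J, it was 1 for sgP1 vs sgNC, with FGFR1 at 0.07, FGFR3 at 0.06 and FGF19 at -0.84. sgP2 vs sgP1 then had FGFR3 at -0.09, FGFR4 at 0.38 and FGF19 at 0.42, and sgDual vs sgP1 had FGF19 at 1.06. Without guide sgP2D, it was 1 for sgP2 vs sgNC and 0 for sgP2 vs sgP1. Without guide sgP2G, it was 1 for sgP2 vs sgNC, with FGFR3 at 0.08 and FGF2 at -0.37. FGF2 for sgP2 vs sgP1 was then -0.83 (adjusted p = 0.013, against -0.39 and 0.283 as reported). Without guide sgDual2, FGF19 was -0.63 against sgNC and -0.21 against sgP2, and 1 member passed for sgDual vs sgP1. Without guide sgDual3, FGFBP1 was -0.03 against sgNC and FGF19 0.44 against sgP1. FGFR4 for sgP1E vs sgP1J was -1.39 without sgP1E replicate 2 (adjusted p = 0.0312).

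Leaving out 1 library at a time gave these ranges. Panc10.05 P1-a2 vs P2-a8: FGFR2 from -0.19 to 0.94. BxPC3 P1-a2 vs NC: FGFR4 from -0.41 to 0.49. BxPC3 P1-a2 vs P2-a8: 1 to 2 members, FGFR4 from -0.56 to 0.35, FGFBP1 from -0.16 to 0.05. BxPC3 P2-a8 vs NC: 0 to 1 members, FGFR1 from -0.15 to 0.14, FGFR3 from -0.09 to 0.03, FGFR4 from -0.1 to 0.35. sgP1 vs sgNC: FGFR1 from -0.17 to 0.08, FGF19 from -0.16 to 0.75. sgP2 vs sgNC: 0 to 2 members, FGFR2 from -0.49 to 0.11, FGFR3 from -0.12 to 0.01, FGF2 from -0.08 to 0.19. sgDual vs sgNC: 2 to 4 members, FGFR1 from 0 to 0.24, FGF19 from -0.11 to 0.65. sgP2 vs sgP1: 0 to 1 members, FGFR4 from -0.43 to 0.04. sgDual vs sgP1: FGF19 from -0.41 to 0.38. sgDual vs sgP2: FGFR1 from -0.13 to 0.01. sgP1E vs sgP1J: FGFBP1 from -0.09 to 0.15. sgP2D vs sgP2G: FGFR1 from -0.13 to 0.26, FGFR2 from -0.37 to 0.12, FGFR4 from -0.4 to 0.43, FGFBP1 from -0.42 to 0.06, FGF19 from -0.39 to 0.6. sgDual2 vs sgDual3: 0 members each time, FGFR3 from -0.45 to 0.02. The line contrast of P1-a2 vs P2-a8: 1 to 2 members, FGFR2 from -1.11 to 0.03, FGFR3 from -0.64 to 0.14.

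Groups share replicate numbers 1 and 2, but the labels do not say that a number marks a batch. Same-numbered libraries deviated together with r from -0.01 to 0.01 in Panc10.05, 0.07 to 0.13 in BxPC3 and 0.08 to 0.34 in AsPC-1, where 15 of 21 pairs of guides were over 0.1. In all 7 AsPC-1 guides FGF19, FGFR4 and FGFR2 were higher in the library numbered 2, and FGFR1 and FGFBP1 in the one numbered 1. With a replicate block, 5 members passed for sgP1E vs sgP1J (FGFR4 at -1.01 and FGFR1 at 0.24 joined) and 3 for sgDual2 vs sgDual3 (FGF19 at 1.42 and FGFBP1 at -0.49 joined), and no other count of members moved by over 1.5 times. FGFR4 at 21 to 34 counts in BxPC3 and FGFR2 at 4 to 26 counts in Panc10.05 are limited by depth.

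Counts over all genes moved by over 1.5 times in these cases. sgP1 vs sgNC had 45 genes as reported, 229 by DESeq2, 81 with no filter, 7 with only the 2 groups fitted, 127 with the block, 262 without guide sgP1E, 1242 without guide sgP1J and 1 to 144 with 1 library left out. sgP2 vs sgNC had 581, and then 1082 by DESeq2, 1103 with only the 2 groups fitted, 972 with the block, 322 and 293 without guides sgP2D and sgP2G, and 57 to 466 with 1 library left out. sgP2 vs sgP1 had 731, and then 1204 both by DESeq2 and with the block, 189 with only the 2 groups fitted, 2764, 306 and 411 without guides sgP1E, sgP2D and sgP2G, and 324 to 1208 with 1 library left out. sgDual vs sgP1 had 6505 and, without guide sgDual3, 4320. With no filter, sgDual2 vs sgDual3 went from 150 to 417, sgP2D vs sgP2G from 288 to 649 and BxPC3 P2-a8 vs NC from 1232 to 1982. With the block, these were 558, 778 and 2886, sgP1E vs sgP1J went from 2467 to 4616 and BxPC3 P1-a2 vs P2-a8 from 3963 to 5992. With 1 library left out, sgDual vs sgNC (6048 as reported) had 2775 to 5555, sgDual2 vs sgDual3 53 to 71, sgP1E vs sgP1J 1484 to 2224, sgP2D vs sgP2G 135 to 169, BxPC3 P1-a2 vs P2-a8 2538 to 3013 and BxPC3 P2-a8 vs NC 495 to 927.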
